A study of Macaca mulatta with 6 samples.

Results

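NF-kB subunits and the feedback inhibitors of NF-kB were examined in the retinas of rhesus macaques after irradiation of 1 optic nerve. The list held 10 genes: the subunits NFKB1, NFKB2, RELA and RELB, the inhibitors NFKBIA, NFKBIE, NFKBIZ, TNFAIP3 and BIRC3, and TNFAIP2. All probe sets that the platform annotation gives to these genes were taken, which made 21 probe sets of 9 genes among the 52024 probe sets and 14132 named genes of the array. RELA, the p65 subunit, had no probe set under its symbol and is not analysed here. The subunits had 7 probe sets, the inhibitors 12 and TNFAIP2 the other 2.

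The animals were 3 male macaques of 8 to 10 years. In each, gamma knife surgery gave 15 Gy at the 50% isodose line to the intraorbital optic nerve of 1 side, and the eyeball received 3 Gy on that side and 1 Gy on the other. Retinas of the irradiated side are called treated retinas, and those of the other side of the same animals are called control retinas, so that the control retinas came from anesthetized, irradiated animals and not from untreated ones. A direct effect of the larger dose at the treated eye and an effect of the nerve injury cannot be told apart. Total RNA of the temporal side of each retina, dissected at 24 h without the pigment epithelium, was hybridized to 1 Affymetrix array, giving 3 arrays of treated and 3 of control retinas. The values are log2 MAS 5.0 signals, a robust average of brightness over the probes of a probe set. This orders the arrays for 1 probe set but not different probe sets within an array.

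NF-kB is a family of dimeric transcription factors that IkB proteins hold in the cytoplasm of resting cells. Signals from cytokine receptors, pattern receptors or damaged DNA activate the IkB kinase, which marks IkB for destruction and sets the dimers free. Several of the genes they switch on, among them those for IkB proteins and for A20 (TNFAIP3), shut the pathway off again, so that these inhibitors are widely used as transcript readouts of recent NF-kB activity. In the retina, NF-kB is known for its part in the responses of Müller glia, microglia and vessels to injury.

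The median log2 signal of an array lay between 6.44 and 7.03. Photoreceptor markers were bright, as a retina should be, with no value of 6 genes below a log2 signal of 13.62 on any array. All 6 were lower in the treated retina of 3 of 3 pairs, where 13.6% of all named genes were. Their median log2 fold change was −0.17. PDE6A (−0.34) and CRX (−0.23) were lower at an unadjusted p under 0.05, where 3.01% of all named genes were lower and 5.02% higher. Of 8 measured markers of blood leukocytes, all 8 had a log2 fold change above 0, where 55.5% of all named genes did, and 4 were higher at that threshold. Among the dimmer probe sets of these markers, those of MS4A1 stood at −1.56, −1.52 and 0.24, and those of PTPRC and FCN1 above 0. Their summed linear signal lay between 2099 and 3820 in control and between 4354 and 12556 in treated retinas, but most of it was that of LYZ, lysozyme, and without LYZ the ranges were 321 to 660 and 602 to 962 and overlapped. Markers of microglia and macrophages moved both ways. Of 10, 4 were higher at that threshold and in 3 of 3 pairs, AIF1 (0.78), TYROBP (0.64), C1QB (0.62) and C1QA (0.61). Another 4 stood below 0, ITGAM (−0.43) and P2RY12 (−0.27), lower in 3 of 3 pairs, and CD68 (−0.19) and C1QC (−0.11). The dimmer probe sets stood at 0.45 for AIF1, 0.86 for C1QA and −0.69 for P2RY12, and that of CD68, at 1.59, was higher at that threshold. All of these were named after their values were seen. The summed signal of the 10 lay between 2509 and 2843 in control and between 2946 and 3364 in treated retinas, and without CD68, the brightest, the ranges of 1597 to 1985 and 1949 to 2407 overlapped. The lowest log2 signal was 1.83 for leukocytes (NKG7) and 5.09 for microglia. On each array, between 22.6% and 29.7% of all probe sets lay under 5. Detection calls were not used, so it is not known whether the dimmest markers were detected. The 7 endothelial markers had a median log2 fold change of 0.051, with 1 lower at the same threshold, and 0 of the 2 erythrocyte and the 5 pigment epithelium markers were at it. Of 4 markers of Müller glia, 1 was higher and 2 were lower, and no marker of any list passed after adjustment. In whole retina, a change in the number of cells of a type and a change of RNA per cell cannot be told apart, and the part of these cells in the results below was not tested.

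At 24 h, no NF-kB gene of the list rose or fell by the test. Of the 21 probe sets, 0 passed an adjusted p under 0.05 (limma, paired, Benjamini-Hochberg over all probe sets), where 0.111% of all probe sets did, and the smallest adjusted p was 0.604. At an unadjusted p under 0.05, 1 probe set was higher and 0 were lower, where 2.97% of all probe sets were higher and 3.77% lower, so the members' count was near the background. The methods' t-test gave 0 of the 21 at an unadjusted p under 0.05, where 5.56% of all probe sets passed. The log2 fold change, treated minus control, was above 0 in 11 probe sets and below 0 in 10, where 45.4% of all probe sets were above 0. In 5 of the 21 the treated retina was higher in 3 of 3 pairs, where 13.0% of all probe sets were, and in 3 it was lower in 3 of 3, where 16.1% were. Its median over the 21 was 0.010, beside −0.038 over all probe sets. With 1 brightest probe set for each of the 9 genes, 6 stood above 0 (55.5% of all named genes did), 4 were higher in 3 of 3 pairs (19.3%) and 1 was lower in 3 of 3 (13.6%).

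**Figure D1:**
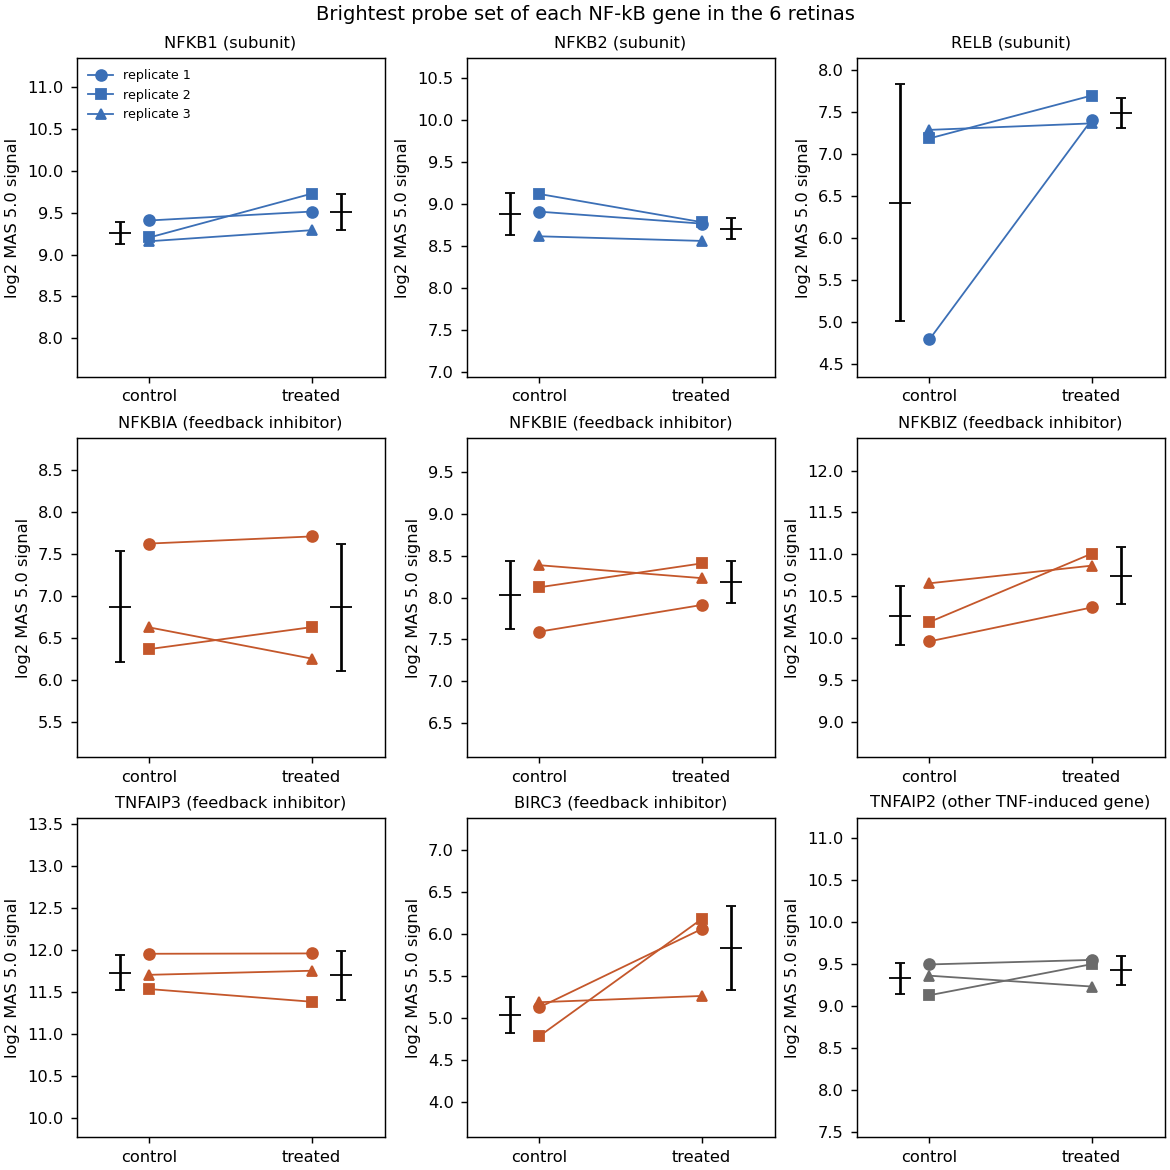
Log2 MAS 5.0 signal (vertical axis, each panel spanning the same 3.8 log2 units) of the brightest probe set of each of the 9 measured genes in control and treated retinas, with a line for each pair and a marker shape for each replicate number. Black bars give the mean and SD of 3 retinas. NFKBIZ is higher in 3 of 3 pairs, the pairs of TNFAIP3 differ little, those of NFKBIA differ in both directions, and the RELB difference comes mostly from 1 low control retina.

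Among the subunits, NFKB1 encodes p105, the precursor of p50, and is itself a known NF-kB target. Its brightest probe set read 9.41, 9.20 and 9.16 in the control retinas of replicates 1 to 3 and 9.51, 9.73 and 9.29 in the treated retinas. The treated retina was higher in 3 of 3 pairs, but the groups overlapped, since the control retina of replicate 1 lay above the treated retina of replicate 3. The log2 fold change was 0.25 (SE 0.14, adjusted p = 0.752 from limma), a fold of 1.19 with a 95% confidence interval from 0.958 to 1.48. The other probe sets of NFKB1 gave 0.088 (SE 0.24) and −0.22 (SE 0.43).

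NFKB2 encodes p100, the precursor of p52 in the alternative branch of the pathway. Its brightest probe set read 8.91, 9.12 and 8.61 in control retinas and 8.76, 8.78 and 8.56 in treated retinas. It was lower in the treated retina of 3 of 3 pairs, with overlapping groups, and its log2 fold change, −0.18 with an SE of 0.14, did not pass (limma, adjusted p = 0.805). The interval of the fold ran from 0.702 to 1.11. The dimmer probe sets of NFKB2 stood at −0.43 (SE 0.57) and −0.23 (SE 0.79), and each was higher in replicate 1 alone.

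RELB is the partner of p52 in the alternative branch. Its single probe set read 4.79, 7.18 and 7.29 in control retinas and 7.41, 7.70 and 7.36 in treated retinas. All treated values lay above all control values, but the control retina of replicate 1 stood far below every other array. The differences within pairs were 2.62, 0.51 and 0.078. The log2 fold change was 1.07 with an SE of 0.49 (adjusted p = 0.751 from limma), and without replicate 1 it was 0.29 (adjusted p = 0.989).

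Among the inhibitors, NFKBIA encodes IkB alpha, the classical inhibitor that binds p50 and p65 dimers and is made again soon after their activation. Its single probe set read 7.62, 6.36 and 6.62 in control retinas and 7.71, 6.63 and 6.25 in treated retinas. Both retinas of replicate 1 were the brightest of their groups, and the groups overlapped over almost their whole range. Its log2 fold change stood at −0.0084 (SE 0.30, adjusted p = 0.997 from limma), with an interval of the fold from 0.610 to 1.62, so neither a modest rise nor a modest fall could be told from no change. Its sign changed with the scaling of the arrays, to 0.089 after centring on medians and 0.088 after quantile normalization.

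TNFAIP3 encodes A20, an enzyme that edits ubiquitin chains on signalling proteins upstream of the IkB kinase. It was the most precisely measured member, with 5 probe sets, of which 4 had a mean log2 signal of 9 or over. The brightest read 11.95, 11.53 and 11.70 in control retinas and 11.96, 11.38 and 11.75 in treated retinas. The pairs differed by 0.0043, −0.15 and 0.049, which was less than the spread among retinas of 1 group (SD 0.21 and 0.29). Its log2 fold change was −0.033 (SE 0.091, adjusted p = 0.953 from limma), and the interval of the fold ran from 0.844 to 1.13. The sign of this value changed to 0.064 when the arrays were centred on their medians. The next brightest probe sets stood at −0.0087 (SE 0.10), 0.010 (SE 0.11) and −0.20 (SE 0.13), and the dim one at −0.45 (SE 0.66). For the 3 brightest, intervals of the fold reached at most 1.20 upward and 0.843 downward.

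NFKBIZ, which encodes the nuclear protein IkB zeta, was the member at an unadjusted p under 0.05. IkB zeta does not hold NF-kB in the cytoplasm but binds p50 in the nucleus, where it helps to switch on a late set of inflammatory genes and restrains others. The brightest probe set read 9.96, 10.19 and 10.66 in control retinas and 10.37, 11.01 and 10.87 in treated retinas. The treated retina was higher in 3 of 3 pairs, by 0.40, 0.82 and 0.21, although the groups overlapped because the retinas of replicate 1 were the dimmest on both sides. The log2 fold change was 0.48 (SE 0.13, unadjusted p = 0.00740 and adjusted p = 0.604 from limma), a fold of 1.39 with an interval from 1.13 to 1.72. The unadjusted p was over 0.05 without the pairing (0.0901), with an untrended variance prior (0.0899) and by the methods' t-test (0.116). The dimmer probe set gave 0.90 (SE 0.61), with control values of 6.99, 3.62 and 4.65 and treated values of 6.55, 5.53 and 5.88. It was higher in 2 of 3 pairs.

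NFKBIE encodes IkB epsilon, an inhibitor that is made later than IkB alpha after stimulation. Its probe set read 7.59, 8.12 and 8.39 in control retinas and 7.91, 8.41 and 8.23 in treated retinas. The groups overlapped, and the log2 fold change was 0.15 (SE 0.19, adjusted p = 0.882 from limma), higher in 2 of 3 pairs.

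BIRC3 encodes cIAP2, a ubiquitin ligase at the TNF receptor that drives the classical branch and restrains the alternative one. All 3 of its probe sets were dim and all stood above 0. The brightest read 5.13, 4.79 and 5.19 in control retinas and 6.06, 6.18 and 5.27 in treated retinas. The second read 4.49, 4.41 and 3.46 in control and 6.30, 4.75 and 5.81 in treated retinas. In both, every treated value lay above every control value. The third read 2.86, 1.87 and 4.76 in control and 5.63, 5.23 and 4.01 in treated retinas, and its groups overlapped. The log2 fold changes were 0.80 (SE 0.55), 1.50 (SE 0.68) and 1.79 (SE 0.97), with adjusted p = 0.777, 0.751 and 0.752 from limma. Over the 3 probe sets, 8 of 9 differences within pairs were upward, but these probe sets measure the same retinas and are not independent. With the 3 averaged into 1 value, the log2 fold change was 1.36 (adjusted p = 0.769). With 1 replicate left out, the 3 values ranged from 0.50 to 1.16, from 1.07 to 2.08 and from 1.01 to 3.06, the brightest being lowest without replicate 2 and the dimmest lowest without replicate 2 and highest without replicate 3.

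TNFAIP2 is a TNF-induced gene that acts on the cell's membrane protrusions rather than on NF-kB. Its 2 probe sets did not move together. The bright one read 9.50, 9.13 and 9.36 in control and 9.55, 9.50 and 9.23 in treated retinas, which made a difference of 0.098 on the log2 scale (SE 0.14, limma, adjusted p = 0.896). The dim one read 6.64, 6.57 and 6.02 in control and 4.62, 5.38 and 5.77 in treated retinas. There every treated value lay below every control value, and the log2 fold change was −1.15 (SE 0.51, adjusted p = 0.749).

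**Figure D2:**
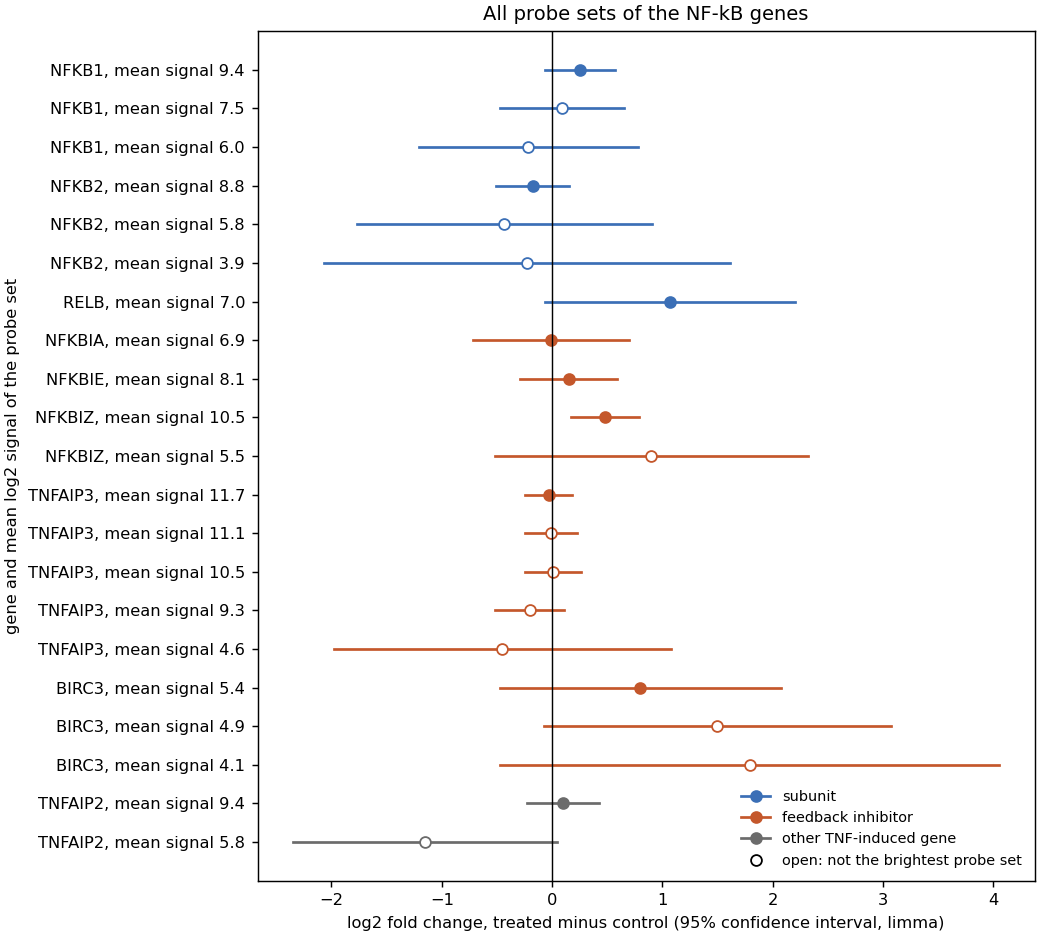
Log2 fold change, treated minus control (horizontal axis), of all 21 probe sets, each named by gene and mean log2 signal, with bars for the 95% confidence interval from limma. Filled points are the brightest probe set of a gene. The interval of the brighter NFKBIZ probe set alone lies above 0, those of the 3 brightest TNFAIP3 probe sets are the narrowest, and the widest belong to probe sets with a mean signal under 7.

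The SE of a member followed its brightness. This relation is partly built in, because the trended variance prior of the fit draws each variance toward a value set by the mean signal. The 7 probe sets with a mean log2 signal of 9 or over had SEs from 0.091 to 0.14, and the largest of their log2 fold changes was 0.48 in size. The 11 with a mean under 7 had SEs from 0.30 to 0.97 and log2 fold changes of up to 1.79 in size. RELB and both BIRC3 probe sets without overlap belong to the second group, RELB (mean 6.95) only through its control value of 4.79 in replicate 1. In all, 3 of the 21 had every treated value above every control value, where 3.11% of all probe sets and 3.12% of those with a mean under 7 did. In 1 probe set, the dim one of TNFAIP2, every treated value lay below, where 3.53% of all probe sets did.

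Subunits were then set beside inhibitors, with 1 brightest probe set for each gene. The median log2 fold change was 0.25 over the 3 subunits and 0.15 over the 5 inhibitors, beside 0.032 over all named genes. The inhibitor group is mixed, since IkB zeta and cIAP2 also have activating roles, as described above. Their genes NFKBIZ (0.48) and BIRC3 (0.80) were the highest of the 5. NFKBIE stood at 0.15, NFKBIA at −0.0084 and TNFAIP3 at −0.033. In the pairs of replicates 1 to 3, the median of the subunits was 0.11, 0.51 and 0.078, and that of the inhibitors was 0.32, 0.28 and 0.049. The inhibitors lay above the subunits in replicate 1, by 0.21, and below them in replicates 2 and 3 (differences −0.23 and −0.029). No order of the subunits and the inhibitors held across the pairs. With all probe sets of a gene averaged, the median of the inhibitors minus that of the subunits was 0.11 in place of −0.10, and the median of the subunits was 0.042 in place of 0.25. The latter was 0.12 without replicate 2, and over all 7 probe sets of the subunits the median was −0.18. No test was made of these medians, which rest on 3 and 5 genes chosen with earlier results known.

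**Figure D3:**
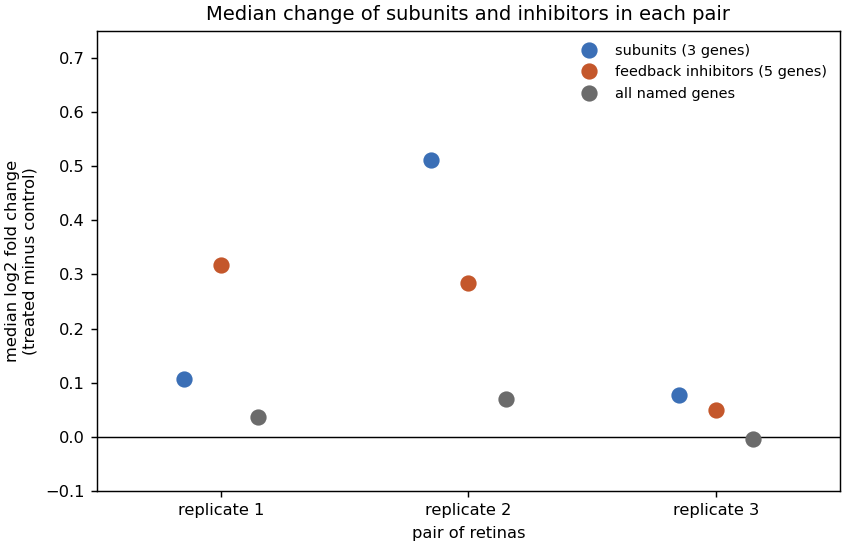
Median log2 fold change, treated minus control (vertical axis), of the 3 measured subunits, the 5 inhibitors and all named genes in each pair of retinas (horizontal axis). The order of subunits and inhibitors differs between replicate 1 and replicates 2 and 3.

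The rest of the pathway, taken as lists by role, was examined in the same fit with the brightest probe set of each gene. Of 90 listed genes, 68 were measured. Outside the target genes, 0 of 48 passed after adjustment and 2 were higher at an unadjusted p under 0.05, where 5.02% of all named genes were higher and 0.212% passed after adjustment. Of the other NF-kB and IkB genes, 0 of 4 were at that threshold, with REL, the c-Rel subunit, at −0.089 (SE 0.16) and the IkB family genes BCL3, NFKBIB and NFKBID at 0.22, 0.19 and 0.23 (SE 0.21, 0.29 and 0.32). Of the ligands and receptors, 1 of 12 was, TNFRSF12A, the receptor of the cytokine TWEAK. It read 7.07, 8.18 and 7.89 in control retinas and 8.54, 8.91 and 8.30 in treated retinas, which put it 0.87 higher on the log2 scale (SE 0.23, limma, unadjusted p = 0.00625 and adjusted p = 0.582). Every treated value lay above every control value. The cytokine gene IL1B, named after its values were seen, stood at 0.45 (SE 0.34) by its brightest probe set, and its dimmer ones stood at 2.17 (unadjusted p = 0.00360 and adjusted p = 0.496 from limma) and 2.22 (unadjusted p = 0.0223 and adjusted p = 0.716). All 3 were higher in 3 of 3 pairs. Of the adaptors 0 of 11 and of the kinases 0 of 8 were at the threshold, with medians of 0.22 and 0.042, and the IkB kinase subunit IKBKB stood at 0.086 (SE 0.11).

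Of the other negative regulators, 1 of 13 was higher at an unadjusted p under 0.05, TNIP2, an adaptor that binds A20 and restrains the pathway. It read 7.69, 8.65 and 8.52 in control retinas and 8.53, 9.36 and 8.95 in treated retinas, with overlapping groups but a higher value in 3 of 3 pairs. Its log2 fold change was 0.66 (SE 0.16, unadjusted p = 0.00335 and adjusted p = 0.485 from limma), and the median of the 13 was 0.025. TNF itself, named after its values were seen, stood at 1.82 with an SE of 0.81 on a dim probe set (adjusted p = 0.748), read at 4.92, 1.81 and 2.67 in control and 5.68, 4.99 and 4.19 in treated retinas.

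Genes known as NF-kB targets did include genes that rose. Of 20 measured, 3 passed after adjustment, all upward, where 0.205% of all named genes rose, and the list had a median log2 fold change of 0.44. CCL2, a chemokine for monocytes, read 6.51, 6.34 and 7.38 in control retinas and 9.68, 10.03 and 9.65 in treated retinas (log2 fold change 3.04, SE 0.27, adjusted p = 0.0164 from limma). SOD2, the mitochondrial superoxide dismutase, read 9.80, 10.24 and 10.78 in control and 11.95, 12.27 and 11.87 in treated retinas (1.76 with SE 0.19 and adjusted p = 0.0303), while its dimmer probe set stood at −0.11. GADD45B, a stress gene, read 8.25, 7.93 and 7.71 in control and 9.87, 9.92 and 9.05 in treated retinas (1.65, SE 0.17, adjusted p = 0.0238). Its dimmer probe sets stood at 1.12 and 1.39 and did not pass (adjusted p = 0.200 and 0.220 from limma). By their brightest probe sets, these 3 genes had no control value that reached a treated value. They are also induced through other pathways, and the list was written with their rise known, so their count is not independent evidence. None of the 3 passed without replicate 1, without the pairing, with an untrended variance prior or by the methods' t-test after adjustment.

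**Figure D4:**
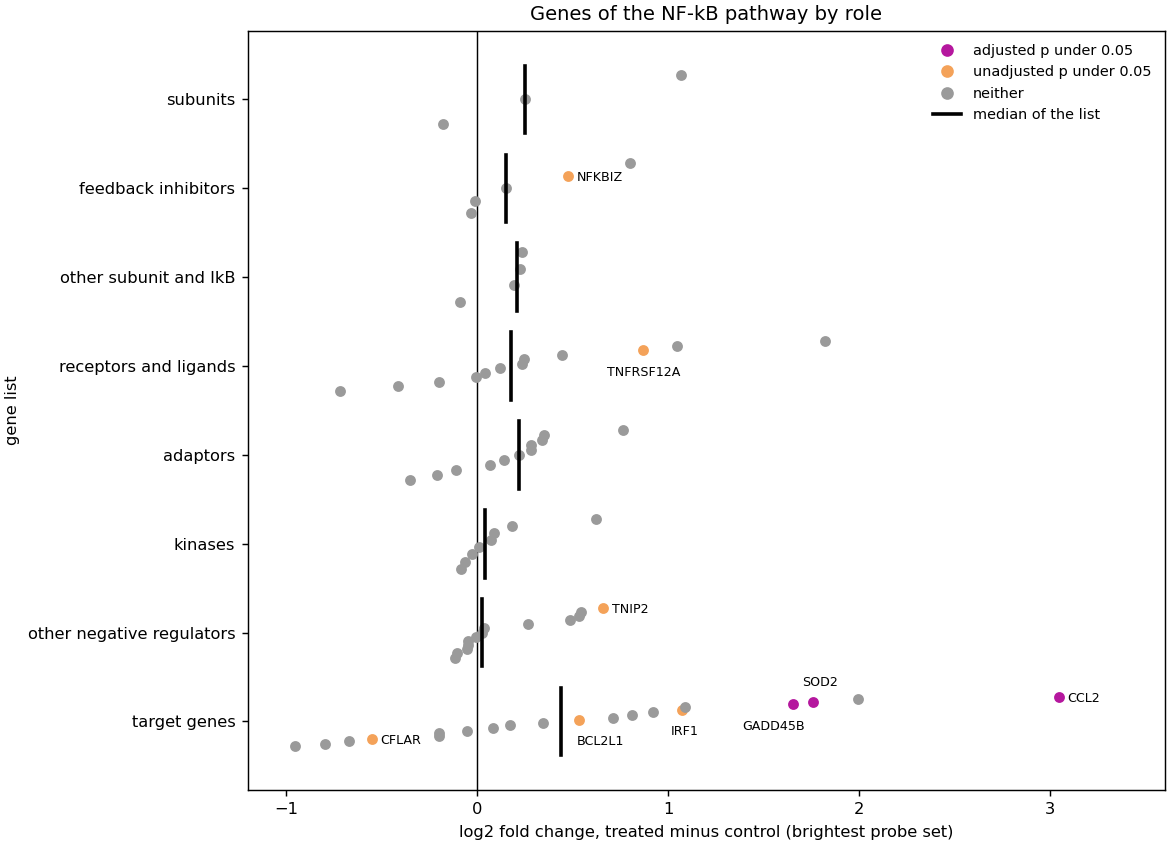
Log2 fold change, treated minus control (horizontal axis), of the brightest probe set of each measured gene, in rows by its role in the NF-kB pathway, with a bar at the median of each list and colors for the test. The 3 genes past the adjusted threshold, CCL2, SOD2 and GADD45B, lie in the row of target genes.

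At an unadjusted p under 0.05, 5 of the 20 target genes were higher and 1 was lower, where 3.01% of all named genes were lower. Those beyond the 3 above, named after their values were seen, were IRF1, an interferon regulatory factor, at 1.07 (SE 0.23, adjusted p = 0.368 from limma), BCL2L1, an inhibitor of apoptosis, at 0.53 (adjusted p = 0.708) and CFLAR, which blocks caspase-8, at −0.55 (adjusted p = 0.734). The other 3 probe sets of BCL2L1 stood between −0.24 and −0.16, and those of CFLAR between −0.13 and 0.58. The other 14 target genes did not pass, and 8 of them stood above 0. They ranged from ICAM1, an adhesion molecule, at −0.95 (SE 0.67) to BCL2A1, an inhibitor of apoptosis, at 1.99 (SE 0.92). The adhesion molecules VCAM1 and SELE stood at 0.17 (SE 0.22) and 1.09 (SE 0.66), and the cytokine genes IL6, CCL5 and CXCL8 at −0.79 (SE 0.57), 0.92 (SE 0.51) and 0.81 (SE 0.49). These genes, like the other NF-kB and IkB genes and IKBKB above, were picked for their role with their values in view. The difference between the target genes and the members was not tested.

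Across the 6 arrays, the named genes whose brightest probe set followed the mean log2 profile of the 5 inhibitors most closely were PLP2, SYNPR, KXD1, CRTAC1 and RABGGTA, with Pearson's r from 0.982 to 0.996 among 9672 genes with a signal above the median. For the 3 subunits they were NXT1, TFEB, SHROOM3, CLEC1A and TNFRSF12A, with r from 0.968 to 0.997. With 6 arrays that share animals and so many genes searched, these values describe likeness in this data set alone.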

How the data were processed

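RNA of the temporal retina of both eyes of 3 macaques was measured on 6 Affymetrix Rhesus Macaque Genome arrays of 1 color. The authors computed MAS 5.0 signals with GeneSpring and deposited their log2 values. MAS 5.0 sets the trimmed mean of every array to 1 target, and the medians of the arrays still differ. Detection calls were not used. The number of arrays limits the precision.

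Differences between treated and control retinas were estimated in 52024 probe sets by limma 3.58.1 under R 4.3.3, with a term for the replicate number, a trended variance prior (eBayes) and no filter, and Benjamini-Hochberg adjustment over all probe sets. The methods' t-test is the paired t-test on the same values. It called 2891 probe sets at an unadjusted p under 0.05, more than the paper reports. Its calls are thus not those of the study. Pairing follows the study's methods, which compare both retinas of a monkey. Deviations from the group mean of same-numbered arrays correlated at 0.357, 0.137 and 0.161, and those of differently numbered arrays at no more than 0.104. Whether the numbers mark the monkeys is not stated in the labels. The paper gives an array fold of GADD45B for each monkey. Differences between same-numbered arrays in its brightest probe set, taken off the log2 scale, match those folds in order. Gene names are those of the platform annotation, brought up to date through their identifiers from the gene table of assembly T2T-MMU8v2.0 (98.6% of the probe sets with 1 symbol, all 21 of the members), and no coordinates or sequences were taken. For a gene with several probe sets, the brightest over the 6 arrays stood for it.

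The members, the pathway lists and the marker lists were chosen with earlier results of these data known. Every member was named, and in each other list the genes at an adjusted p under 0.05 and at most 3 at an unadjusted p under 0.05, and others are said to be named after their values were seen. For likeness, the 5 genes with the highest Pearson's r to the mean profile were named. The alternatives are pairing, scaling, variance prior, a filter on dim probe sets, 16 added to the linear signal, probe sets averaged by gene and each replicate left out. The fit was tested on simulated data, with changes of 1 or 2 log2 units in probe sets with a mean log2 signal above 7. It recovered 90% and 99% of them after adjustment. In the simulation, the spread was set by the mean signal alone, without the scatter between real probe sets of like signal. These shares may thus be too high for the real data, and they do not show which changes of the members could have been missed. Smaller changes, and changes in probe sets with a lower mean, such as those of RELB, NFKBIA and BIRC3, were not covered. Python 3.11.15 and matplotlib 3.10.9 made the figures.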

Additional observations from a re-analysis of the deposited data

How the results depend on the processing

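No member probe set passed an adjusted p under 0.05 in any fit run: the smallest adjusted p of a member lay between 0.249 (without replicate 3) and 1.00 (no replicate block). The number of members higher at an unadjusted p under 0.05 was 1 as reported, 0 with no replicate block and by the methods' t-test, 3 after centring on medians, 2 after quantile normalization, 2 with 16 added to the linear signal, and 1 to 3 with 1 replicate left out (3 without replicate 2 and 3 without replicate 3). It was also 1 with a prior without trend, but there a BIRC3 probe set (limma, unadjusted p = 0.0468 and adjusted p = 0.873) took the place of NFKBIZ. The number lower was 0, with 1 (the dim TNFAIP2 probe set) after the filter on dim probe sets and with 16 added, and 0 to 1 with 1 replicate left out. NFKBIZ stood between 0.31 and 0.61 over the fits with a replicate left out, and its unadjusted p was 0.0901 with no replicate block, 0.0899 with a prior without trend and 0.116 by the methods' t-test. Signs changed for NFKBIA (0.089 after centring, 0.088 after quantile normalization, −0.14 to 0.17 with 1 replicate left out). They also changed for TNFAIP3 (0.064 after centring, −0.073 to 0.026 with 1 left out) and for TNFAIP2 (−0.038 to 0.21 with 1 left out, −0.53 with its probe sets averaged). None of these values was at an unadjusted p under 0.05, though the dim TNFAIP2 probe set was in some fits, as counted above. With 1 replicate left out, the median of the inhibitors lay between 0.065 and 0.30 and that of the subunits between 0.12 and 0.31. The counts with 16 added, and the marker sums without the brightest gene, were chosen after seeing the data. The causes of these changes were not tested.

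Of the 68 other pathway genes, 3 passed after adjustment as reported, and 0 with no replicate block, with a prior without trend and by the methods' t-test, and 0 to 3 with 1 replicate left out (0 without replicate 1). The 1 lower at an unadjusted p under 0.05 became 0 with no replicate block, after centring and without trend, 2 by the methods' t-test and 0 to 2 with 1 replicate left out. Over all probe sets, 58 passed after adjustment, 0 with no replicate block, without trend and by the methods' t-test, and 17 to 222 with 1 replicate left out. At an unadjusted p under 0.05, 1544 were higher (674 with no replicate block, 983 to 1963 with 1 left out) and 1962 lower (601 with no replicate block, 1143 after centring, 1227 to 3122 with 1 left out). The share that was higher was 44.0% as deposited and 61.7% after centring, which moved the median log2 fold change of all probe sets from −0.038 to 0.059. Dim probe sets limit what can be said of BIRC3 and NFKBIA, and 1 low control value limits what can be said of RELB.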
